A study of Danio rerio with 48 samples.

Results

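The yolk of wild-type (WT) zebrafish at 26 hours post fertilisation (hpf) was compared with the whole embryo of the same age. Members were all genes that passed a filter on low counts, 21962 of the 36109 genes in the deposited count table. RNA sequencing libraries from 4 samples labelled yolk tissue (WT, 26 hpf) were set against 4 from whole embryos (WT, 26 hpf), which is 8 of the 32 libraries in the table and 8 of the 48 samples in the labels. No treatment or allele other than WT is given for either group, and how the yolk was separated from the body is not stated in the labels. A whole embryo still contains its yolk, so every difference is between the yolk and a sample that holds yolk and body together. The libraries of the 2 groups carry replicate numbers 1 to 4, and the labels do not say whether they came from separate clutches, so p-values measure the spread between these libraries, which may be technical.

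In a zebrafish embryo the yolk cell holds the maternal store of lipid and protein, and a thin sheet of cytoplasm with many nuclei, the yolk syncytial layer, surrounds it. This layer digests the store in acidic compartments, repackages lipid into lipoproteins that carry apolipoprotein B, and passes lipoproteins, amino acids, metals and vitamins to the body, in the way that the liver and intestine do later. The first blood cells and macrophages move over its surface, and the heart lies against it.

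Each library held between 32302472 and 36963595 counts. The 10 most abundant genes took 19.14, 23.98, 26.19 and 26.02% of the counts in yolk replicates 1, 2, 3 and 4, against 7.87 to 8.34% in whole embryos. The trimmed mean of M values (TMM), which sets each library's scale from the bulk of its genes, gave factors of 0.87, 0.693, 0.565 and 0.492 to yolk replicates 1 to 4 and of 1.542 to 1.581 to the whole embryos. Levels are given as CPM, the count of a gene per fixed number of counts in its TMM-scaled library, in the order of replicates 1, 2, 3 and 4, and differences are yolk minus whole embryo on the log2 scale with their standard error (SE). Yolk replicate 1 stood apart from the other yolk libraries. Its log2 CPM correlated at 0.794 to 0.86 with the other yolk libraries, which correlated at 0.94 to 0.969 with each other, while the whole embryos correlated at 0.975 to 0.983 with each other. On the first principal component, which held 89.8% of the variance, yolk replicate 1 lay at 21.1, the other yolk libraries at 89.9 to 130.5 and the whole embryos at -90.1 to -81.7. Yolk replicate 1 exceeded the highest of the other 3 yolk libraries by more than 2 times at 1957 of 18220 genes, against 89, 115 and 354 genes for yolk replicates 2, 3 and 4. At 1956 of those 1957 genes the whole embryos were also above the other yolk libraries. Yolk replicates 1 to 4 lay more than 2 times below the lowest of the other 3 at 613, 324, 578 and 1476 genes. On that side yolk replicate 4 thus stood apart most often.

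The label yolk tissue was checked with genes that mark the yolk syncytial layer and its lipoprotein export. The homeobox factor mxtx1, which acts in the yolk syncytial layer, had 6.62, 10.2, 13.7 and 10.5 CPM in yolk, against 0.118, 0.297, 0.0703 and 0.35 CPM in whole embryos. The nuclear receptor hnf4a had 31.8, 63.5, 86.7 and 127.1 CPM in yolk, against 2.23, 3.17, 3.86 and 4.2 CPM in whole embryos. The groups did not overlap for either gene, and yolk replicate 1 was the lowest yolk library for both. The yolk means were 48.2-fold higher for mxtx1 (log2 5.59, SE 0.52) and 22.9-fold higher for hnf4a (log2 4.52, SE 0.44). Transcripts of mttp, which loads lipid onto apolipoprotein B, were 23.6-fold higher. The sulfate carrier slc26a1, also listed as a marker, did not separate the groups, with 8.93, 11.4, 8.82 and 14.5 CPM in yolk and 14.1, 9.72, 12.6 and 14.5 CPM in whole embryos (edgeR quasi-likelihood test, adjusted p = 0.43). The endodermal factor sox32 did not pass the filter.

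Transcripts of body tissues were then summed in each yolk library, because muscle, lens and neural genes should be scarce in yolk. The summed level of 51 skeletal muscle genes in yolk replicates 1, 2, 3 and 4 was 56.8, 1.07, 1.75 and 0.889% of the whole-embryo mean. For 69 lens genes the shares were 48.3, 3.42, 6.37 and 3.26%, and for 61 neural genes they were 57, 12.6, 9.11 and 10.7%. Yolk replicate 1 thus held about the same share of all of these lists, far above the share in any other yolk library. Shares here and below are on the TMM scale. With library totals alone those 3 lists stood at 31.7, 26.9 and 31.8% in yolk replicate 1. For the notochord and cartilage matrix list the shares were 70.3, 16, 12.6 and 8.51%, and for pigment cell genes 61.2, 29.3, 37 and 26.4%. A wider set of 311 genes, with at least 10 CPM in whole embryos and under 5% of that in yolk replicates 2 to 4, had a median of 57.4% of the whole-embryo level in yolk replicate 1, with an interquartile range of 49.8 to 66.9%. Not every list was raised in this library. The erythroid list reached 101, 311, 354 and 506% of the whole-embryo mean in yolk replicates 1 to 4, and the hatching gland list 44.8, 120, 103 and 66.2%, so yolk replicate 1 was the lowest yolk library for both. The source of the body transcripts in yolk replicate 1 was not tested. Results with and without this library are given for all genes, for many lists and for many of the named genes.

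**Figure D1:**
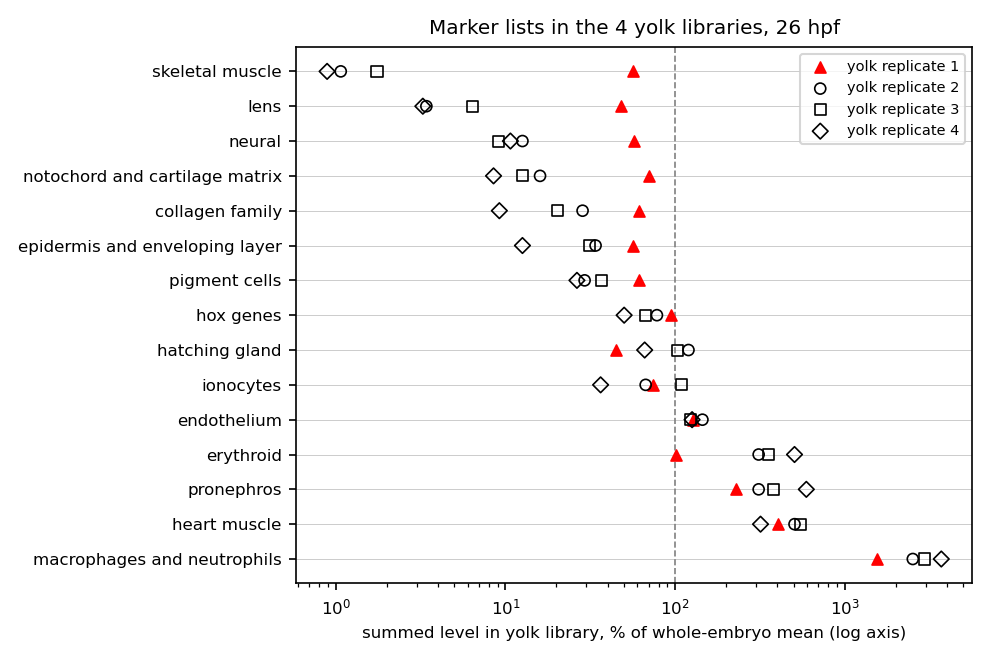
Summed TMM-scaled CPM of each marker list in every yolk library, as a percent of the whole-embryo mean of the same list (log axis, 1 point per library, filled red for yolk replicate 1, and the dashed line marks 100%). Yolk replicate 1 lies at 48.3 to 70.3% for skeletal muscle, lens, neural and notochord genes, where the other yolk libraries lie at 0.889 to 16%.

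Single body genes showed the same split. The calcium pump of fast muscle, atp2a1, had 3270, 1.26, 23 and 5.38 CPM in yolk, against 5523, 5479, 6616 and 5546 CPM in whole embryos. The muscle actin actc1b had 2914, 10.5, 59.8 and 14.4 CPM in yolk, against 4383, 4101, 4463 and 4580 CPM in whole embryos. The lens crystallin cryba1b had 21.6 CPM in yolk replicate 1 and no count in the other 3 yolk libraries, against 51.5, 42.5, 49.1 and 62.4 CPM in whole embryos. All yolk values lay below all whole-embryo values for these 3 genes, yet none passed the test with 8 libraries (adjusted p = 0.27 for atp2a1, 0.22 for actc1b and 0.14 for cryba1b). With the replicate number as a block each of them passed (adjusted p = 0.045, 0.039 and 0.044 in that order). Without yolk replicate 1 the adjusted p was 0.00013 for atp2a1, which was then 578.2-fold lower, and 3.9e-05 for actc1b, then 152.9-fold lower. The RNA-binding protein gene elavl3, an early neuronal marker, had 196.6, 26.5, 9.83 and 37.9 CPM in yolk and 373.2, 406.8, 448.2 and 425.7 CPM in whole embryos, and fell with all libraries (log2 -2.61, SE 0.82, adjusted p = 0.032) and further without yolk replicate 1 (log2 -4.05). The call of elavl3 was lost when yolk replicate 2 or 4 or any 1 whole embryo was left out (log2 -2.66 to -2.34, adjusted p = 0.059 to 0.091).

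Across the 21962 genes tested, 5655 were higher in yolk, which is 25.7% of them, and 4109 were lower, which is 18.7%. Together 44.5% of genes passed the edgeR quasi-likelihood test at a Benjamini-Hochberg adjusted p under 0.05, and the median log2 difference of all tested genes was -0.09. Counts of list members given below are to be read beside these shares. All yolk libraries lay above all whole embryos at 5520 genes (25.1%) and below them at 5709 genes (26.0%). A lack of overlap between the groups was thus common and does not set a gene apart. The balance of large folds turned on yolk replicate 1. Of the higher genes, 1520 were at least 8-fold higher and 194 at least 32-fold higher, while 287 of the lower genes were at least 8-fold lower and 28 at least 32-fold lower. Without yolk replicate 1 the counts were 1758 higher and 1976 lower at 8-fold, and 347 higher and 701 lower at 32-fold. Without yolk replicate 1, 6432 genes were higher (28.4% of 22623 tested) and 6556 lower (29.0%), so that 49.5% of called genes were higher in place of 57.9%. Of the 5655 higher genes, 5629 were also called without that library, and so were 4050 of the 4109 lower genes. The calls gained were mostly lower ones, 2506 against 803. Of the gained lower genes 2398 were tested both times, and in 2309 of these yolk replicate 1 was the highest yolk library. That share is largely set by how these genes were picked, since they gained their call when that library was left out. Leaving out 1 of the other 7 libraries in turn gave 4792 to 5397 higher and 2354 to 3631 lower genes, with 2354 to 2593 lower genes without 1 whole embryo and 2551 without yolk replicate 3.

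Yolk replicate 1 was also the lowest of the 4 yolk libraries at 78.7% of the genes called higher and the highest at 80.7% of the genes called lower. The median difference of the higher genes was 1.87 with it and 2.05 without it, and that of the lower genes was -1.39 with it and -1.66 without it. No gene that changed direction when the library was left out was called either time. The scale of the libraries mattered more for the balance of calls. When CPM were set by library totals alone, the median of all tested genes moved by -1.24, and 15.5% of called genes were higher, 2510 genes against 13714 lower. All 2510 of these were among the 5655, 826 of the 5655 were then called lower, and all 4109 lower genes were called lower again. Changes below are on the TMM scale, which reads each gene relative to the bulk of genes. Fewer cells of a type and less RNA per cell cannot be told apart in these bulk libraries.

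**Figure D2:**
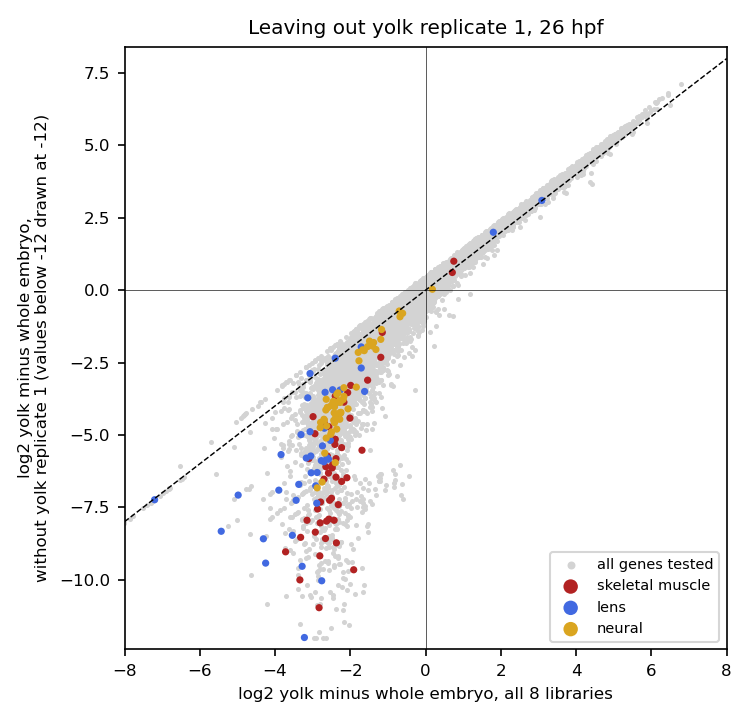
Log2 difference of yolk minus whole embryo for each gene with all 8 libraries (horizontal axis) and without yolk replicate 1 (vertical axis), with skeletal muscle, lens and neural genes coloured and the dashed line marking equal values (a few lower values are drawn at the bottom edge). Most genes lie near the line, whereas skeletal muscle genes have a median of -2.48 with the library and -6.14 without it.

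The counts of the yolk libraries were concentrated in a few genes, most of them for lipoproteins and other secreted proteins. The 10 genes that took the largest share of yolk counts among those called higher were apobb.1, apoa1b, apoa1a, bhmt, afp4, apoeb, tfa, apoa2, ctsla and fetub, and they made up 23.6% of yolk counts against 1.92% of whole-embryo counts. Apolipoprotein B, the structural protein of very low density lipoproteins, is encoded by apobb.1, which had 67970, 114361, 136899 and 162333 CPM in yolk and 3232, 4705, 4832 and 4987 CPM in whole embryos. The type IV antifreeze protein gene afp4, a relative of apolipoproteins, had 15574, 23546, 35194 and 40942 CPM in yolk and 669.2, 800.8, 639.2 and 888.1 CPM in whole embryos. The methyltransferase gene bhmt, which makes methionine with betaine as donor, had 19375, 29348, 39994 and 39519 CPM in yolk and 1034, 1252, 1114 and 872.3 CPM in whole embryos. No yolk library overlapped a whole embryo for these genes, and yolk replicate 1 was lowest each time. The 10 genes were 26.4 to 38.5-fold higher, with a median of 34.8-fold. The 100 most abundant of the called higher genes took 45.8% of yolk counts and 8.13% of whole-embryo counts, with a median of 26.2-fold and an interquartile range of 16.8 to 31.4-fold. Of these 100 genes 78 were at least 16-fold higher, and the folds ran from 1.65 to 66.5.

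**Figure D3:**
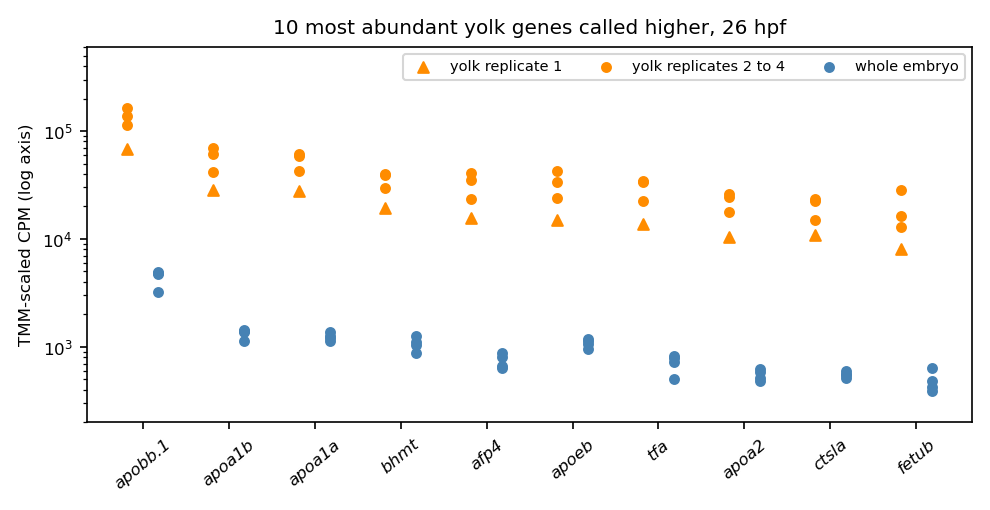
TMM-scaled CPM (log axis) of the 10 genes with the largest yolk levels among those called higher, with the 4 yolk libraries left (orange, yolk replicate 1 as a triangle) and the 4 whole embryos right (blue) for each gene. Each gene sits 26.4 to 38.5-fold higher in yolk and no library overlaps.

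Some genes exceeded the 26.4 to 38.5-fold of the 10 most abundant genes. The cathepsin S gene ctss2.1, a lysosomal protease, had 2171, 3552, 4192 and 5529 CPM in yolk and 54.8, 52.3, 45.5 and 79.7 CPM in whole embryos, 66.5-fold higher (log2 6.06, SE 0.38, adjusted p = 1.8e-05). The carotenoid-cleaving enzyme gene bco2l had 4.94, 31.2, 38.9 and 47.9 CPM in yolk and 0.237, 0.482, 0.176 and 1.09 CPM in whole embryos, 61.4-fold higher. The secreted glycoprotein ependymin, epd, had 3.06, 11.6, 6.59 and 44 CPM in yolk, against no count in whole-embryo replicates 1 and 3, 0.0371 CPM in replicate 2 and 0.77 CPM in replicate 4. Yolk lay above whole embryos in every library for these genes, though epd rested on few whole-embryo counts, which makes its fold loose (log2 6.29, SE 1.52). The 10 with the largest log2 difference were taken among genes called with and without yolk replicate 1, with groups that did not overlap and a mean of at least 10 CPM in the higher group, clone names left out. The others among these 10 were the fatty acid elongase elovl8a, the collagen receptor kinase ddr2b, the alkaline phosphatase alpi.2, slc23a3 of the ascorbate and nucleobase carrier family, the P450 enzyme cyp1c1, mxtx1 and the retinol-binding protein rbp2a, at 47.4 to 56.8-fold.

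Under the same conditions, which leave out genes at low levels with larger folds, the 10 with the largest decrease were the vesicle fusion factor napba, the muscle protease capn3a, fam117ba, the neuronal adaptor subunit AP3B2, the axonal adhesion molecule l1cama, the calcium channel of skeletal muscle cacna1sa, the cadherin celsr3, apc2, the receptor gpr37l1a and the vesicular glutamate carrier slc17a6a. They were 8.5 to 12.9-fold lower with all libraries. The conditions also leave out abundant genes that were not called with all 8 libraries. Among those were atp2a1 and actc1b, at 578.2-fold and 152.9-fold lower without yolk replicate 1. The 10 genes are thus not the largest decreases once that library is left out. Expression of napba was 2.12, 0.336, 0.557 and 0.687 CPM in yolk and 9.5, 12.8, 14.1 and 13 CPM in whole embryos. That of l1cama was 7.44, 0.588, 0.709 and 1.26 CPM in yolk and 22.2, 23.5, 27.4 and 24.1 CPM in whole embryos. The groups did not overlap, and yolk replicate 1 stood highest among the yolk libraries for both. Without it napba was 23.5-fold and l1cama 28.7-fold lower. The calls of capn3a, fam117ba, cacna1sa, gpr37l1a and slc17a6a were lost when any 1 whole embryo or yolk replicate 2 was left out, and for some of them also without yolk replicate 3 or 4 (log2 -3.76 to -2.76, adjusted p = 0.052 to 0.094).

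Genes of plasma proteins were mostly higher in yolk. Of 28 complement genes tested, 24 were higher and 1 lower, with a median of 4.7. Of 25 clotting and fibrinolysis genes, 23 were higher and none lower (median 4.52), and of 22 plasma carriers and inhibitors 20 were higher and none lower, or 1 lower without yolk replicate 1 (median 4.86). The central complement component c3a.1 had 3562, 6266, 6527 and 7252 CPM in yolk and 176.2, 256.7, 215.4 and 196.4 CPM in whole embryos, 27.9-fold higher. The exception was one of a pair of copies of the terminal component C7. Transcripts of c7b were at 46, 39.6, 123.9 and 145.2 CPM in yolk and 2.69, 1.21, 2.16 and 3.71 CPM in whole embryos, 36.3-fold higher. Its relative c7a had 4.5, 3.57, 2.33 and 2.52 CPM in yolk and 12.7, 6.1, 8.76 and 6.43 CPM in whole embryos, 2.62-fold lower (adjusted p = 0.0083). Both copies separated the groups in every library, in opposite directions. Reads of the near-identical c3a copies may have been divided among them by the counting, so single c3a values are uncertain.

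Some genes that were higher by a large fold lay next to each other. In the gene order of the RefSeq assembly GRCz12tu, to which 16923 tested genes were matched by name, 6.79% of genes were called at least 8-fold higher, and of the genes that directly followed such a gene 18.4% were also at least 8-fold higher, 211 of 1147. For genes at least 8-fold lower the shares were 1.18% of all and 3.02% of followers, 6 of 199. The longest run was the apolipoprotein group apoa4b.1, apoa4b.2, apoeb, apoc1, apoa2 and apoc2 on chromosome 16, whose 6 members had differences of 4.55 to 5.28. A run of 5 on chromosome 22 held the complement regulator cfh and its relatives cfhl1, cfhl2, cfhl4 and cfhl5, at 4.57 to 5.12. On chromosome 11, 5 copies of the glucuronosyltransferase ugt1b followed each other, at 3.81 to 6.12. Neighbours of this kind are often copies of one another, so their counts are not independent, and no test was made of the shares.

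The breakdown machinery of the yolk was broadly higher. Of 53 lysosomal genes tested 44 were higher and none lower, or 1 lower without yolk replicate 1 or without yolk replicate 4 (median 2.91), and of 14 cathepsins 13 were higher (median 4.06). The cathepsin L gene ctsla had 10982, 15041, 22555 and 23287 CPM in yolk and 510.6, 548.2, 595 and 566.3 CPM in whole embryos, 32.4-fold higher. The cholesterol-binding protein npc2 was 37.3-fold, the sphingolipid activator precursor psap 30.2-fold and the membrane protein cln3 29.1-fold higher. Of 23 genes of the vacuolar ATPase, the proton pump that acidifies lysosomes, 17 were higher and 3 lower (median 2.51). Paralogs of this pump parted. The accessory subunit gene atp6ap1b had 234.6, 349.3, 456.7 and 579.9 CPM in yolk and 44, 41.1, 47.6 and 50.1 CPM in whole embryos, 8.86-fold higher. Its paralog atp6ap1a had 6.44, 3.99, 2.94 and 2.98 CPM in yolk and 13.4, 15.1, 15.8 and 15.7 CPM in whole embryos, 3.65-fold lower. The other lower genes were the membrane subunits atp6v0a2a and atp6v0a1b, at 4.76-fold and 4.46-fold lower, and the groups did not overlap for any of these 4 genes. Of 34 autophagy genes 23 were higher and 3 lower (1 lower without whole-embryo replicate 3), with a median of 1.1 that turned to -0.21 with library totals alone.

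Metal handling genes included many that were higher. Of 32 tested, 20 were higher and 1 lower, or 2 lower without yolk replicate 1 (median 1.5, and 0.09 with 14 higher and 8 lower under library totals alone). The zinc importer slc39a5 had 406.7, 580.7, 676.4 and 925.2 CPM in yolk and 12.7, 16.2, 14.6 and 16.2 CPM in whole embryos, 43.3-fold higher. The zinc exporter slc30a1b was 35.6-fold, the haem oxygenase hmox1a 33.6-fold and the iron exporter ferroportin, slc40a1, 15.8-fold higher. The plasma iron carrier transferrin, tfa, was 36.7-fold higher. The one lower entry of the list was ftr86, which by its symbol is a finTRIM family gene and not a metal handling gene. It had 4.81, 3.44, 2.63 and 1.26 CPM in yolk and 11.5, 13.6, 13.7 and 9.16 CPM in whole embryos, 3.91-fold lower. It is thus no exception among metal genes.

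About as many vitamin A and carotenoid genes were higher as were not called or lower. Of 25 tested, 13 were higher and 2 lower (median 0.78, and -0.45 with 11 higher and 8 lower under library totals alone). Higher genes included the plasma retinol carrier rbp4, with 776.4, 1281, 2426 and 1927 CPM in yolk and 60.4, 97.2, 85.7 and 90 CPM in whole embryos, 19.2-fold higher. The retinol receptor stra6 was 11.8-fold and the carotene-cleaving enzyme bco1 9.32-fold higher, and rbp2a, which binds retinol inside cells, was 47.4-fold higher. The 2 lower genes were the retinoic acid degrading enzyme cyp26b1, 2.62-fold lower, and the visual cycle protein rlbp1a, 4.77-fold lower at 0 to 0.5 CPM in yolk and 0.668 to 1.62 CPM in whole embryos. The call of rlbp1a was lost without any 1 whole embryo and without yolk replicate 3 or 4 (log2 -2.47 to -2.13, adjusted p = 0.061 to 0.11), and 6 genes of the list were lower without yolk replicate 1. Over the whole cytochrome P450 family 32 of 61 genes were higher and 6 lower (median 1.83), or 35 of 62 and 8 without yolk replicate 1. Both enzymes that activate vitamin D rose. The liver-type hydroxylase cyp2r1 had 24.3, 38.8, 48.6 and 75.4 CPM in yolk and 1.95, 1.52, 1.07 and 2.21 CPM in whole embryos, 27.7-fold higher. The kidney-type hydroxylase cyp27b1 had 106.4, 180.9, 181.5 and 146.9 CPM in yolk and 6.04, 3.58, 4.09 and 3.85 CPM in whole embryos, 35-fold higher. Groups did not overlap for either. Among the lower P450 genes were cyp27a7, 5.6-fold lower, and the steroid enzyme cyp17a1, 3.17-fold lower.

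Several lists of lipid genes, though not all, were mixed, and members of 1 family went both ways. Of 12 fatty acid binding proteins and related acyl carriers, 6 were higher and 2 lower (median 1.66). The intestinal form fabp2 had 1893, 2124, 3404 and 3669 CPM in yolk and 105.9, 88.5, 67.6 and 83.5 CPM in whole embryos, 32.1-fold higher, and the liver form fabp1b.1 was 29.6-fold higher. The muscle form fabp3 had 177.4, 70.1, 62.3 and 59.1 CPM in yolk and 249.4, 271.4, 210.7 and 273 CPM in whole embryos, 2.72-fold lower, and the brain form fabp7a was 5.42-fold lower. Of 24 uptake receptors 11 were higher and 8 lower, with a median of 0.32 that was -0.94 with library totals alone. The high density lipoprotein receptor scarb1 was 13-fold higher, whereas the vitamin uptake receptor cubn was 7.68-fold, the low density lipoprotein receptor ldlrb 3.68-fold and the megalin gene lrp2a 1.99-fold lower. Of 25 lipid and bile transporters of the ABC family 11 were higher and 6 lower. The cholesterol exporter abca1b had 3167, 4528, 4711 and 6591 CPM in yolk and 143.2, 163.4, 193.8 and 203.2 CPM in whole embryos, 27-fold higher, and the bile salt pump abcb11a was 30.4-fold and the conjugate pump abcc2 32.2-fold higher. The sterol exporters abcg1 and abcg4a were lower, at 7.89-fold and 12.4-fold, from at most 1.65 CPM in any library. Leaving out any 1 of the libraries other than yolk replicate 1 ended the call of fabp7a (log2 -2.6 to -2.09, adjusted p = 0.062 to 0.11), leaving out whole-embryo replicate 3 ended that of abcg1 (log2 -2.61, adjusted p = 0.057), and 4 acyl carriers were lower without yolk replicate 1.

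Lipid synthesis showed the same division. Of 38 fatty acid and triglyceride synthesis genes 17 were higher and 14 lower. The elongase elovl5, which lengthens polyunsaturated fatty acids, had 326.6, 807.4, 814.1 and 1277 CPM in yolk and 19.4, 35.4, 21.6 and 38.6 CPM in whole embryos, 28.1-fold higher. The enzyme that commits carbon to new fatty acids, acaca, had 7.56, 5.46, 3.45 and 2.52 CPM in yolk and 15.7, 15.2, 19.3 and 16.7 CPM in whole embryos, 3.51-fold lower, and the desaturase scdb was 4.52-fold lower. Groups did not overlap for any of the 3. Of 28 cholesterol genes 13 were higher and 3 lower. The esterifying enzyme soat2 was 46.1-fold higher, while hmgcra, of the rate-limiting step, was 2.65-fold lower at 0.203 to 0.875 CPM in yolk and 1.5 to 1.79 CPM in whole embryos. Of 21 lipase and remodelling genes 10 were higher and 4 lower, among them the lysosomal phospholipase pla2g15, 25.9-fold higher, the transfer protein cetp, 18.9-fold higher, and the lipase mgll, 4.51-fold lower. The medians of the ABC transporter, fatty acid synthesis, cholesterol and lipase lists were 0.54, 0.32, 0.62 and 0.09, and all turned negative with library totals alone (-0.72, -0.95, -0.66 and -1.23). The lower counts changed when single libraries were left out. Without 1 library other than yolk replicate 1 there were 9 to 14 lower fatty acid synthesis genes and 0 to 4 lower lipase genes. Leaving out yolk replicate 1 gave 17 lower fatty acid synthesis, 5 lower cholesterol and 7 lower lipase genes. The call of hmgcra was lost without yolk replicate 4 or any 1 whole embryo (log2 -1.44 to -1.36, adjusted p = 0.055 to 0.079) and with the replicate number as a block (-1.53, adjusted p = 0.054), and that of mgll without yolk replicate 2 or 3 or whole-embryo replicate 1 or 4 (-2.11 to -1.97, adjusted p = 0.056 to 0.059).

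Membrane carriers of the solute carrier family numbered 366 among the tested genes, of which 153 were higher and 77 lower. The shares over all genes tested were 25.7% higher and 18.7% lower. The median of the carriers was 0.21, and -1.04 with library totals alone. Leaving out yolk replicate 1 gave 164 higher and 102 lower of 368 carriers, against 28.4% higher and 29.0% lower over all genes tested. The amino acid carrier slc43a2b had 3411, 6108, 5888 and 9273 CPM in yolk and 129.9, 182.3, 165.7 and 181.3 CPM in whole embryos, 37.4-fold higher. The drug and toxin exporter slc47a1 was 42.2-fold, the fatty acid carrier and acyl-CoA synthetase slc27a2a 38.9-fold and the glucose carrier slc2a2 30.4-fold higher. Among the lower carriers were the glutamate carrier slc1a6, at 28.9-fold with levels of 0 to 0.101 CPM in yolk and 0.578 to 0.853 CPM in whole embryos, and the glial glutamate carrier slc1a3b, at 8.64-fold. The sugar carrier slc2a15a had 23.8, 3.36, 3.45 and 2.4 CPM in yolk and 46, 49.5, 59.3 and 56.4 CPM in whole embryos, 6.33-fold lower and 16.9-fold lower without yolk replicate 1. Leaving out 1 other library in turn gave 47 to 66 lower carriers, fewest without whole-embryo replicate 3, and slc1a3b lost its call without yolk replicate 3 or 4 or any 1 whole embryo (log2 -3.15 to -2.85, adjusted p = 0.056 to 0.07).

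Nuclear receptors divided about evenly on the TMM scale, with 14 of 41 higher, 11 lower and a median of 0, against -0.09 for all genes, but with library totals alone 7 were higher and 28 lower (median -1.24). The bile acid responsive repressor nr0b2a had 637.5, 996.7, 1687 and 2421 CPM in yolk and 40.8, 45.3, 64 and 71 CPM in whole embryos, 26-fold higher. The retinoic acid receptor raraa was 6.63-fold and the glucocorticoid receptor nr3c1 4.83-fold higher. The mineralocorticoid receptor nr3c2 was 5.92-fold lower, and the clock repressor nr1d1 8.95-fold lower, with levels of 0 to 0.115 CPM in yolk and 0.333 to 0.89 CPM in whole embryos. Of 35 secreted growth factors and hormones 12 were higher and 4 lower, and 7 were lower with the replicate number as a block. Over all genes tested 25.7% were higher and 18.7% lower. With library totals alone 6 of them were higher and 19 lower (median -1.11, against 0.09 on the TMM scale). The insulin-like growth factors igf2a and igf2b were 9.35-fold and 8.87-fold higher. Of their binding proteins, igfbp2a had 209, 364, 445.5 and 620.1 CPM in yolk and 17.3, 19, 19.7 and 26.7 CPM in whole embryos, 19.8-fold higher, while igfbp1a had 2.87, 1.68, 1.17 and 0.573 CPM in yolk and 4.15, 6.42, 5.13 and 4.8 CPM in whole embryos, 3.21-fold lower. The growth factors fgf8a and vegfaa were 3.02-fold and 1.61-fold lower. The count of 11 lower nuclear receptors was 4 to 9 without 1 library other than yolk replicate 1, and the 4 lower growth factors were 2 without whole-embryo replicate 1, 7 without yolk replicate 4 and 10 without yolk replicate 1. The call of vegfaa was lost without yolk replicate 2 or 3 or whole-embryo replicate 1 or 4 (log2 -0.66 to -0.61, adjusted p = 0.065 to 0.073).

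Most genes listed for ammonia and urate were higher. Of 7 tested, 5 were higher and none lower (median 2.34). The ammonia channel rhbg had 287.5, 472.4, 502.1 and 726.3 CPM in yolk and 10.7, 14.7, 12.7 and 17.6 CPM in whole embryos, 35.7-fold higher. The enzymes of the later steps of urate breakdown, urahb and urad, were 22.4-fold and 13.9-fold higher, and glutamine synthetase, glula, was 21.3-fold higher. The first enzyme of urate breakdown, uox, did not pass the test, with 0.594, 0.336, 0.304 and 0.229 CPM in yolk and 0.731, 1.11, 0.492 and 1.42 CPM in whole embryos (adjusted p = 0.064, and 0.034 without yolk replicate 1, then 3.16-fold lower). Of 56 genes of amino acid and nitrogen catabolism 25 were higher and 12 lower (median 0.3), and with library totals alone 15 were higher and 28 lower (median -1). The lower ones included the phenylalanine hydroxylase pah, 2.74-fold, and the tyrosine aminotransferase tat, 5.31-fold. The call of tat was lost without yolk replicate 2 or any 1 whole embryo (log2 -2.49 to -2.29, adjusted p = 0.056 to 0.07). Of 57 catabolism genes tested without yolk replicate 1, 25 were higher and 16 lower.

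Housekeeping machinery differed by smaller amounts, near the shift between scales. All 13 mitochondrially encoded genes were higher, with a median of 1.38 that became 0.06, with 1 call, under library totals alone. Transcripts of mt-cyb, a subunit of respiratory complex III, were at 3483, 4352, 6846 and 5609 CPM in yolk and 1128, 1440, 1536 and 1713 CPM in whole embryos, 3.49-fold higher. Of 64 nuclear genes of the citric acid cycle and respiratory chain 36 were higher and 3 lower, or at most 1 lower without any 1 of the 7 libraries other than yolk replicate 1 (median 0.68, and -0.61 with library totals alone). Within that list the succinyl-CoA ligase subunits suclg2 and suclg1 stood apart, 19.9-fold and 7.33-fold higher. Of 47 genes for protein folding in the endoplasmic reticulum 30 were higher and 1 lower, or 3 lower with the replicate number as a block (median 0.89, and -0.43 with library totals alone), with the stress-induced factor ddit3 11.3-fold and the translocation protein tram1 9.49-fold higher. The exception was the chaperone hsp90b1, with 118.1, 104.3, 107.1 and 83.7 CPM in yolk and 147.7, 154.4, 133.2 and 147.2 CPM in whole embryos, 1.41-fold lower, a call that was lost without yolk replicate 2 or 3 or whole-embryo replicate 1, 2 or 4 (log2 -0.51 to -0.47, adjusted p = 0.052 to 0.07). Of 82 cytosolic ribosomal proteins 79 did not pass the test (median 0.17, and -1.07 with library totals alone). Of the 3 that were higher (5 without yolk replicate 1), rps27l was 6.57-fold and rps8b 5.39-fold higher, and both are copies of more abundant genes.

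**Figure D4:**
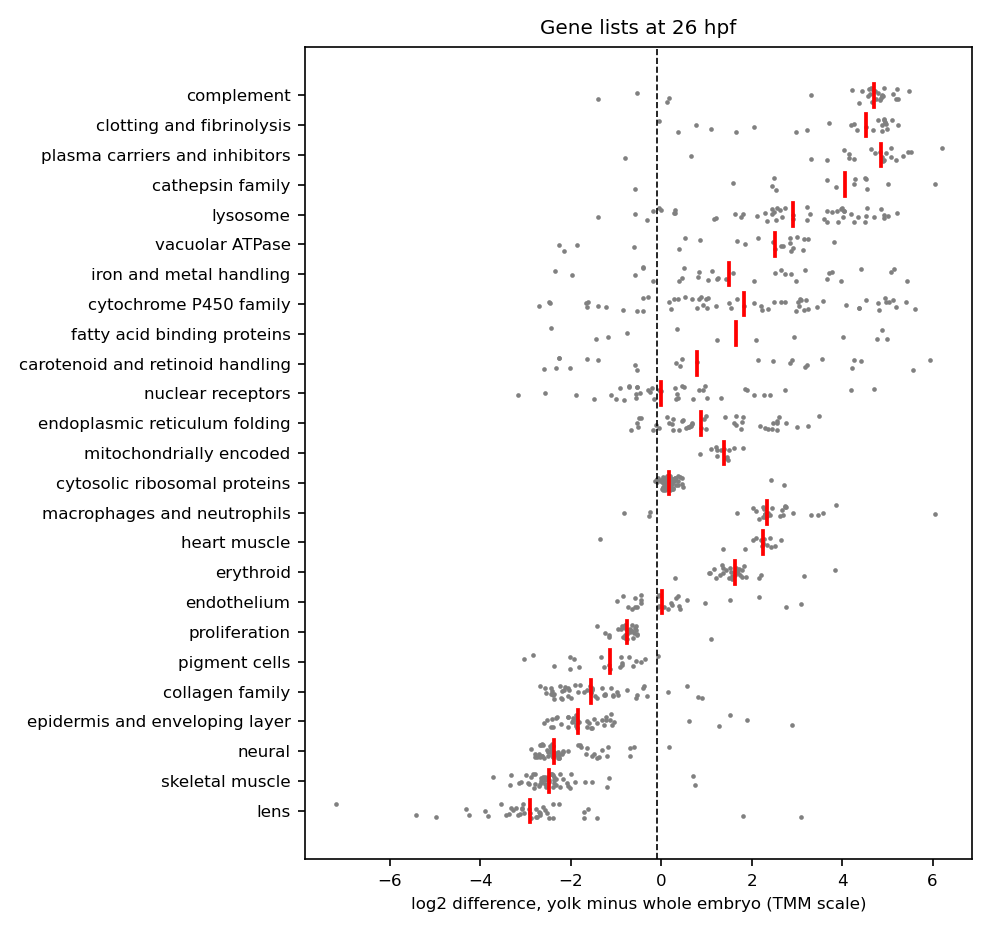
Log2 difference of yolk minus whole embryo for every tested gene of selected lists (1 grey point per gene, red bar for the median of the list, dashed line for the median of all genes tested). Plasma protein, lysosome, vacuolar ATPase, heart muscle, erythroid and macrophage lists lie mostly above 0, and ribosomal proteins lie close to 0. Skeletal muscle, lens, neural, epidermis, collagen and pigment cell lists lie mostly below 0, and the endothelial median is 0.02.

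Blood and immune genes were higher in yolk. Of 31 erythroid genes tested 28 were higher and none lower (median 1.63, and 0.2 with 3 higher and 1 lower under library totals alone). The embryonic globin hbae3 had 365.2, 1051, 1394 and 1902 CPM in yolk and 339.3, 275, 410.5 and 349.3 CPM in whole embryos. The erythroid factor gata1a had 5.56, 23.3, 21.5 and 40.4 CPM in yolk and 5.33, 5.6, 8.17 and 8.79 CPM in whole embryos. Yolk replicate 1 fell within the whole-embryo range for both, and the other yolk libraries lay above it. The differences were 3.43-fold for hbae3 and 3.25-fold for gata1a, and 4.25-fold and 4.1-fold without yolk replicate 1. All 31 erythroid genes were called higher without that library. Leaving out 1 other library in turn gave 9 to 20 higher erythroid genes, 9 of them without whole-embryo replicate 1 or 2, and gata1a lost its call without whole-embryo replicate 1, 2 or 3 or yolk replicate 4 (log2 1.26 to 1.78, adjusted p = 0.052 to 0.068). Globin copies are close to identical, so single globin values are uncertain. Of 30 macrophage and neutrophil genes 27 were higher and none lower, or 1 lower without yolk replicate 1 (median 2.34). The leukocyte phosphatase ptprc had 6.19, 12.6, 12.1 and 10.9 CPM in yolk and 1.46, 1.41, 1.37 and 1.26 CPM in whole embryos, 7.56-fold higher, and the macrophage gene mpeg1.1 was 4.89-fold and the myeloid factor spi1b 5.11-fold higher. Most of the summed level of this list in yolk came from ctss2.1.

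Heart muscle genes went the opposite way to skeletal muscle genes. Of 15 tested 14 were higher and none lower (median 2.24, and 0.99 with 9 higher and 1 lower under library totals alone). The cardiac light chain myl7 had 81.4, 72.5, 96.4 and 49.3 CPM in yolk and 16.3, 16.2, 12.3 and 11.9 CPM in whole embryos, 5.29-fold higher. The atrial myosin myh6 had 43.6, 74.5, 80.6 and 41.4 CPM in yolk and 12.4, 13.2, 14.8 and 9.44 CPM in whole embryos, 4.83-fold higher. No library overlapped between the groups, and yolk replicate 1 was not the highest yolk library for either gene. The exception was the light chain myl4, with 4.69, 0.336, 0.507 and 0.687 CPM in yolk and 4.34, 3.64, 4.51 and 3.82 CPM in whole embryos (adjusted p = 0.17, 0.041 with the replicate number as a block, and 5.4e-05 without yolk replicate 1, then 8-fold lower). Of 28 endothelial genes 5 were higher and 3 lower, or 8 lower without yolk replicate 1 and 1 or 2 lower without any 1 other library (median 0.02, and -1.18 with library totals alone). With all libraries neither share exceeded that over all genes tested, 25.7% higher and 18.7% lower. The vascular growth factor receptor kdr had 85, 139.2, 99.3 and 144.3 CPM in yolk and 13, 14.4, 15 and 12.2 CPM in whole embryos, 8.58-fold higher, and lyve1b was 6.72-fold higher. The endothelial cadherin cdh5 had 42.4, 33.2, 31 and 23.6 CPM in yolk and 40.7, 46.6, 43.7 and 45.7 CPM in whole embryos and did not pass the test (adjusted p = 0.072).

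Skin genes were mostly lower in yolk. Of 42 genes of the epidermis and enveloping layer 23 were lower and 4 higher (median -1.84). The periderm keratin krt4 had 5182, 2433, 2387 and 290.4 CPM in yolk and 11582, 10476, 10416 and 10542 CPM in whole embryos, 4.18-fold lower. The basal keratin krt5 was 4.2-fold lower, with 650, 366.7, 305.5 and 32.1 CPM in yolk and 1623, 1555, 1200 and 1307 CPM in whole embryos. Yolk replicate 4 was the lowest of all libraries for both, far below the next yolk library. The higher keratin krt94 had 30.9, 52.2, 53.5 and 34.1 CPM in yolk and 6.48, 5.75, 6.85 and 4.13 CPM in whole embryos, 7.35-fold higher, and krt18b was 3.71-fold higher. Of 31 claudins, which form tight junctions, 4 were higher and 9 lower, against 25.7% higher and 18.7% lower over all genes tested. The claudin cldnk was 14.4-fold higher, and cldnj was present in yolk replicate 1 alone among the yolk libraries, at 0.75 CPM, against 1.45 to 2.27 CPM in whole embryos. Of 18 ionocyte genes 2 were higher and 9 lower (median -1.79), among them the calcium channel trpv6, 3.77-fold lower. Without yolk replicate 1 there were 35 lower epidermal genes and 15 lower claudins, and without 1 other library 13 to 32 and 3 to 8. The calls of krt4 and krt5 were lost without yolk replicate 2 or 3 or any 1 whole embryo (log2 -2.15 to -2, adjusted p = 0.063 to 0.086), and that of cldnj without any 1 library other than yolk replicate 1 (-3.3 to -2.77, adjusted p = 0.074 to 0.1).

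Matrix, pigment and division genes were also mostly lower. Of 51 collagen chains 24 were lower and 3 higher (median -1.55). The chains of type I collagen, col1a1a and col1a2, were 4.58-fold and 4.14-fold lower, and col1a1a had 854.3, 292.7, 174.5 and 69.3 CPM in yolk and 1717, 1638, 1721 and 1289 CPM in whole embryos. The 3 higher ones were the chains of type VI collagen. The first of them, col6a1, had 93.5, 128, 147.4 and 88.2 CPM in yolk and 54.3, 63.6, 65.5 and 61.4 CPM in whole embryos, 1.87-fold higher, although it turned to -0.37 with library totals alone, as did col6a2 (0.81, then -0.45) and col6a3 (0.58, then -0.68). Of 21 pigment cell genes 17 were lower and none higher (median -1.14). The pteridine enzyme gch2 had 129.5, 28.7, 32.8 and 20.3 CPM in yolk and 254.7, 239.4, 284.4 and 320 CPM in whole embryos, 5.19-fold lower and 9.94-fold lower without yolk replicate 1. Of 29 genes for replication and mitosis 23 were lower and 1 higher (median -0.75). The division marker mki67 had 382.4, 304.3, 263.6 and 214.5 CPM in yolk and 592.8, 652, 684.8 and 653.9 CPM in whole embryos, 2.22-fold lower. The exception was gmnn, an inhibitor of replication licensing, with 26.4, 31.4, 39.9 and 48.3 CPM in yolk and 18.9, 17, 15.2 and 17.2 CPM in whole embryos, 2.13-fold higher and at -0.23 with library totals alone. Groups did not overlap for any of the genes given here by library. The same held for 25.1% of all genes tested with yolk above and 26.0% with yolk below. Without yolk replicate 1 there were 41 lower collagens, 19 lower pigment genes and 28 lower replication and mitosis genes. Leaving out 1 other library gave 10 to 30, 10 to 15 and 9 to 18 lower genes in that order. The calls of col1a1a and col1a2 were lost without yolk replicate 2 or 3 or whole-embryo replicate 1, 2 or 3 (log2 -2.18 to -1.88, adjusted p = 0.056 to 0.078), and that of col6a3 also without whole-embryo replicate 4 (0.38 to 0.63, adjusted p = 0.068 to 0.11).

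The medians of the skeletal muscle, lens, neural and notochord lists changed most when yolk replicate 1 was left out. Skeletal muscle had 5 of 49 genes lower with all libraries, 38 with the replicate number as a block and 46 without yolk replicate 1, and none higher in any of them. The 5 were the second calcium pump copy atp2a1l, the giant elastic proteins ttn.1 and ttn.2, the actin acta1b and the Z-disc protein ldb3a. Lens had 18 of 41 lower, 30 with the block and 37 of 43 without the library. Neural genes had 32 of 60 lower, 50 with the block, 58 without the library and 15 by the DESeq2 Wald test. DESeq2 gave no adjusted p to some neural genes, elavl3 and nova2 among them, and these were counted as not called. The Wald count is therefore not a count of genes that failed the test. Notochord and cartilage matrix genes had 7 of 25 lower, 17 with the block and 24 without the library, and hox genes had 8 of 49 lower, 14 with the block and 30 without the library. Over all genes tested 18.7% were lower with all libraries and 29.0% without yolk replicate 1. Medians without yolk replicate 1 were -6.14 for skeletal muscle, -5.73 for lens, -3.96 for neural genes, -4.64 for the notochord list and -1.54 for hox genes, against -0.11 for all genes tested. With all libraries the 5 medians were -2.48, -2.89, -2.37, -2.13 and -1.19 in that order, so the hox median moved least of them. Leaving out 1 other library in turn gave 1 or 2 lower skeletal muscle genes, 7 to 12 lens, 8 to 15 neural, 3 to 7 notochord and 2 to 6 hox genes. The calls of ttn.1, ttn.2 and ldb3a were lost without any of these libraries, and that of acta1b without yolk replicate 2 or 3 or whole-embryo replicate 3 or 4 (log2 -3.07 to -1.66, adjusted p = 0.055 to 0.11).

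A few members of these lists were higher in yolk in every library. The lens chaperone crystallin cryaa had 6.44, 6.47, 7.09 and 5.27 CPM in yolk and 0.632, 0.631, 0.72 and 0.98 CPM in whole embryos, 8.49-fold higher (adjusted p = 3.3e-05). Yolk replicate 1 did not stand apart for this gene. The lens filament gene bfsp2 was 3.49-fold higher. The matrix linker hapln1b had 29.4, 55.4, 41.3 and 80 CPM in yolk and 4.07, 7.75, 4.64 and 6.62 CPM in whole embryos, 8.92-fold higher. The hindbrain gene hoxb1a was 2.57-fold higher. For 2 further higher hox genes the sign turned with library totals alone, hoxb1b (1.19, then -0.09) and hoxb6a (0.57, then -0.7). On that scale none of the 3 higher hox genes and 1 of the 2 higher lens genes was called higher. In the pronephros list, 5 of 16 were higher and 6 lower, against 25.7% higher and 18.7% lower over all genes tested. Leaving out yolk replicate 1 gave 5 higher and 9 lower, against 28.4% and 29.0% over all genes. The nephrin gene nphs1, known from kidney podocytes, had 41, 45.1, 70.9 and 30.3 CPM in yolk and 2.49, 2.15, 2.63 and 1.68 CPM in whole embryos, 20.9-fold higher, and the sodium, potassium and chloride carrier slc12a1 was 20.1-fold and the cadherin cdh17 13.6-fold higher. The kidney factor pax2a was 5.03-fold lower. The call of hoxb6a was lost with the replicate number as a block (adjusted p = 0.075) and without any 1 library other than yolk replicate 1 (0.44 to 0.65, adjusted p = 0.05 to 0.12), and that of pax2a without yolk replicate 2 or 4 or whole-embryo replicate 1, 3 or 4 (-2.33 to -2.05, adjusted p = 0.05 to 0.059). Members of a tissue list thus need not follow the list, and what these genes do in yolk was not tested.

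Genes listed as maternal oocyte genes were also tested, though these counts cannot tell leftover maternal RNA from new transcripts. Of 18 listed genes 10 were higher and 1 lower (median 2.36). A place in this list does not show that a member is expressed in the oocyte. The vitellogenin vtg7, a yolk protein precursor, had 68.8, 5, 147.2 and 2.69 CPM in yolk and 1.92, 0.26, 2.6 and 0.21 CPM in whole embryos. It was high in replicates 1 and 3 of both groups and low in replicates 2 and 4 of both, and its call was lost without whole-embryo replicate 2 (log2 5.14, adjusted p = 0.052). The pluripotency factor pou5f3 had 9.31, 10.2, 9.83 and 13.1 CPM in yolk and 1.42, 1.45, 0.597 and 1.93 CPM in whole embryos, 7.84-fold higher, and the signal gdf3 was 10.1-fold higher. Other genes, chosen after their values were seen, also varied with the replicate number in both groups. The quinone reductase nqo1 had 14.5, 14.2, 15.2 and 969.5 CPM in yolk and 21.7, 19.4, 19.2 and 57.2 CPM in whole embryos. The steroid enzyme cyp11a1 had 0.875, 18, 2.74 and 247.5 CPM in yolk and 0.237, 0.668, 0.246 and 6.23 CPM in whole embryos. Replicate 4 was the highest library of its group for both genes, and neither was called with all libraries (adjusted p = 0.12 for nqo1 and 0.06 for cyp11a1). Without yolk replicate 4 the difference of nqo1 was -1.01, against 3.11 with all libraries. With the replicate number as a block cyp11a1 was called higher (adjusted p = 0.0061), as it was without yolk replicate 1 and without whole-embryo replicate 4 (log2 5.59 and 7.43).

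The difference of yolk from whole embryo at 26 hpf was tested against that at 48 hpf and at 10 hpf, in 1 fit of all 32 libraries with CPM scaled over them. Both tests use the same 26 hpf libraries. Against 48 hpf, 3474 genes had a more positive and 2439 a more negative difference at 26 hpf, 22.5% of 26268 tested. Against 10 hpf, 4496 were more positive and 3242 more negative, 29.5%. Without yolk replicate 1 the counts were 3482 and 2951 against 48 hpf, and 4507 and 3881 against 10 hpf. With library totals alone the balance turned, to 1992 and 4500 against 48 hpf and to 2903 and 3614 against 10 hpf. With DESeq2 size factors the counts were 4077 and 2026 against 48 hpf, and 3408 and 3777 against 10 hpf. List counts and medians between ages are given on the TMM scale alone. Library totals moved the median over all genes against 48 hpf from 0.16 to -0.3, so small list medians depend on the scale.

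Acidification, heart and blood genes leaned further to the yolk at 26 hpf than at 48 hpf. Of 24 vacuolar ATPase genes 18 were more positive at 26 hpf and none more negative (median 1.73, and 1.81 without yolk replicate 1). Of 15 heart muscle genes 10 were more positive (median 5.55, and 5.63 without the library), of 31 erythroid genes 19 (median 2.55, and 24 genes with a median of 2.89 without the library) and of 32 macrophage and neutrophil genes 13 (median 1.73). Lysosomal genes had 23 of 54 more positive and 2 more negative. Genes for replication and mitosis went the other way, with 26 of 29 more negative at 26 hpf (median -1.28, and -1.46 without yolk replicate 1). Of all 26268 genes tested 22.5% were called, 3474 more positive and 2439 more negative. Leaving out yolk replicate 1 gave 3482 and 2951 of 26809. The median over all genes was 0.16, and 0.07 without the library. For several body lists the count rested on yolk replicate 1. Lens had 26 of 55 more positive with it and 8 without it, skeletal muscle 19 and 10 of 50, neural 32 and 15 of 60, and the notochord list 14 and 3 of 26. The lens and notochord counts without that library were near the share over all genes. The median of the skeletal muscle list was 4.03 with the library and 0.03 without it, and that of the lens list 6.89 and 3.95. Skin lists changed less, with 21 of 44 epidermal genes more positive with it and 18 without it (medians 2.22 and 1.73), and 12 and 11 of 22 keratins (medians 2.71 and 2.26).

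**Figure D5:**
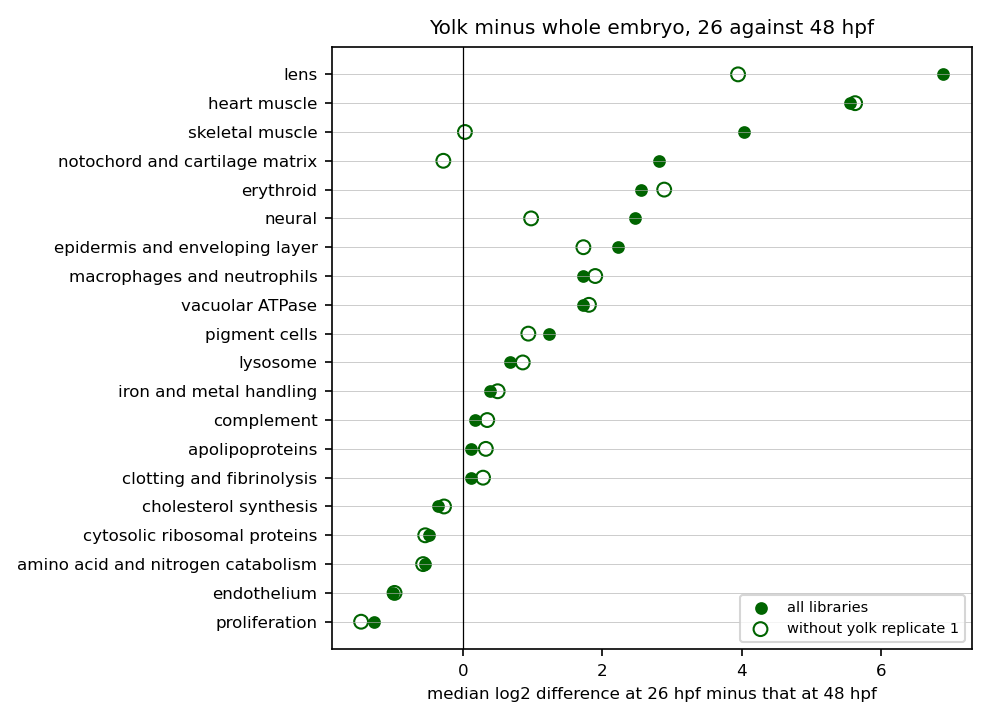
Median, over each list, of the yolk difference at 26 hpf minus that at 48 hpf (log2, 26268 genes tested), with all libraries (filled) and without yolk replicate 1 (open), lists ordered by the filled value. Heart muscle, erythroid and vacuolar ATPase lists hold their place without the library, whereas skeletal muscle moves to 0.03.

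Against 10 hpf, skin genes leaned to the yolk at 26 hpf. Of 44 genes of the epidermis and enveloping layer 30 were more positive at 26 hpf and 4 more negative (median 3.41, and 2.57 without yolk replicate 1), and of 22 keratins 13 were more positive and none more negative (median 3.23, and 2.1 without the library). Their differences at 26 hpf were nevertheless mostly negative, as given above. Replication and mitosis genes had 23 of 29 more positive (median 0.85, and 15 genes with a median of 0.58 without the library). Lysosomal genes had 25 of 54 more positive and 5 more negative, and macrophage and neutrophil genes 12 of 32 more positive and none more negative. Skeletal muscle had 3 of 50 more positive and 7 more negative (median -3.26), and 1 and 38 without yolk replicate 1 (median -6.87). Of all 26268 genes tested 29.5% were called, 4496 more positive and 3242 more negative. Leaving out yolk replicate 1 gave 4507 and 3881 of 26809. The 7 more negative skeletal muscle genes with all libraries were thus near the share over all genes. The median over all genes was 0.21.

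Single genes with the largest change between ages often had a group near 0, so levels are given in place of folds. The genes given here are some of the 5 largest in each direction. The largest positive change against 10 hpf under the rule for named genes was that of nqo1 (8.46). Its yolk level at 26 hpf was 236 ± 444 CPM (SD, n = 4) and was high in replicate 4 alone, as given above. The urate enzyme uox averaged 0.342 ± 0.146 CPM in yolk and 0.992 ± 0.428 CPM in whole embryos at 26 hpf, and 31.4 ± 12.6 CPM in yolk and 1.49 ± 0.609 CPM in whole embryos at 48 hpf (SD, n = 4 each, edgeR quasi-likelihood test, adjusted p = 0.0002 for the change in difference). The membrane-curving protein gene bin2a averaged 1.26 ± 1.32 CPM in yolk and 5.75 ± 0.815 CPM in whole embryos at 26 hpf, and 51.4 ± 9.8 CPM in yolk and 6.09 ± 0.255 CPM in whole embryos at 48 hpf (SD, n = 4 each). The yolk means of both were thus below those of whole embryos at 26 hpf and above them at 48 hpf, although uox did not pass the test at 26 hpf. The photoreceptor subunit gnb3a averaged 0.343 ± 0.15 CPM in yolk and 0.285 ± 0.17 CPM in whole embryos at 26 hpf, and 0.014 ± 0.028 CPM in yolk and 42 ± 10.5 CPM in whole embryos at 48 hpf (SD, n = 4 each). The leukocyte actin bundler lcp1 averaged 52.2 ± 15.9 CPM in yolk and 12.4 ± 3.01 CPM in whole embryos at 26 hpf, and 1.86 ± 0.597 CPM in yolk and 92.9 ± 19.2 CPM in whole embryos at 10 hpf (SD, n = 4 each), a change in difference of 7.72 (SE 0.69, adjusted p = 1.7e-09). The gene nrn1la, a relative of neuritin, averaged 0.107 ± 0.165 CPM in yolk and 2.03 ± 0.545 CPM in whole embryos at 26 hpf, and 17.1 ± 4.5 CPM in yolk and 1.18 ± 0.567 CPM in whole embryos at 10 hpf (SD, n = 4 each). The changes of uox, bin2a, gnb3a, lcp1 and nrn1la were also called without yolk replicate 1. For the crystallins crygm2d21 and crygm2d13, which belong to a family of near-identical copies, the change against 48 hpf was called with all libraries (adjusted p = 0.028 for both) and not without yolk replicate 1 (adjusted p = 0.19 and 1).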

How the data were processed

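The deposited values were whole-number counts per gene, and per the submitters' processing notes the authors' tools included featureCounts 2.0.6, STAR 2.7.10b, Trim Galore 0.6.10 and FastQC 0.12.1, with GRCz11 as the genome build. Per the labels' protocols, total RNA was taken with TRIzol. The treatment of strand and of reads shared by gene copies is not given in the sources used here, so antisense, overlapping and near-identical genes are uncertain. Some genes are not reported here, no sequence is printed, and 16 samples labelled body were not analysed here.

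Counts were tested with edgeR 4.0.16 (R 4.3.3) by its quasi-likelihood test with TMM scaling, filterByExpr (minimum count 10, minimum total 15) and Benjamini-Hochberg adjustment. DESeq2 1.42.0 served as an alternative. Depth was 32302472 to 36963595 counts a library. Differences of differences between ages came from a fit of all 32 libraries. Members and lists (55 lists, 2112 symbols, 2053 found in the table) were chosen with earlier results of these data known. The rule for named genes took the 10 largest differences in each direction among genes called with and without yolk replicate 1, with groups that did not overlap and a mean of at least 10 CPM in the higher group, the 10 most abundant called higher genes, within lists the called members with the largest differences, the most abundant members and the exceptions, and the 5 largest changes in each direction between ages. Clone names were left out. Named outside the rule, after their values were seen, were mttp, slc26a1, gata1a, ptprc, mpeg1.1, spi1b, cln3, stra6, bco1, cyp2r1, nr3c1, igf2b, myl4, trpv6, col1a2, ldb3a, pou5f3, nqo1, cyp11a1 and the members of runs of neighbouring genes. Libraries with the same replicate number deviated together (correlations of 0.16 to 0.25 over 10121 genes in each of the 4 pairs, against at most 0.02 for different numbers). The numbers, which come from the labels, were therefore used as a block in an alternative fit. Deviations were taken from group means and cancel within a group. Correlations for different numbers are thus pushed down where those for the same number are positive, and are no independent comparison. The main fit did not pair the libraries, and calls and folds come from it unless the block is named. No pair of libraries agreed within sampling noise. On simulated counts of 21452 genes 4% of 2-fold and 68% of 8-fold changes were recovered. Only 100 genes were changed at each size, whereas 44.5% of genes were called in the data. The adjustment was therefore stricter in the simulation, and these shares do not measure recovery in the data. Alternatives that also left out yolk replicate 1 with another scale, a block or all 32 libraries were chosen after seeing the data.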

Additional observations from a re-analysis of the deposited data

Results flagged for a closer look

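Of 131 groups of 4 libraries examined, 20 held a library whose gap to its nearest neighbour was a larger part of the range of the group than the 95% critical value of Dixon's test allows. Chance marks about 1 in 20 groups picked without regard to their values. These groups were genes and lists named in the report, some chosen after their values were seen, so their number cannot be judged against that rate. Yolk replicate 1 was the library that stood apart in 12 of the 20. It was highest among the yolk libraries in the summed level of the skeletal muscle list, with a gap of 0.985 of the range, and in those of the lens list (0.931), the neural list (0.926) and the notochord and cartilage matrix list (0.879). It was highest for the muscle genes atp2a1 (0.993), actc1b (0.983), fabp3 (0.907) and myl4 (0.919). The same held for the neural genes elavl3 (0.85) and l1cama (0.902), for slc2a15a (0.951) and for the pigment gene gch2 (0.886).

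Replicate 4 was the highest library of both groups for nqo1, with gaps of 0.999 in yolk and 0.934 in whole embryos, and for cyp11a1, with 0.931 in yolk and 0.928 in whole embryos. The remaining gaps were among whole embryos, with atp2a1 highest in replicate 3 (0.941), epd highest in replicate 4 (0.952), krt4 highest in replicate 1 (0.892) and apobb.1 lowest in replicate 1 (0.839).

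Differences between ages came from the test of the difference itself, in the edgeR fit of 32 libraries. At an adjusted p under 0.05 the yolk difference at 26 hpf differed from that at 48 hpf in 5913 genes and from that at 10 hpf in 7738 genes. Among the genes named, the fitted change against 48 hpf was -5.86 for uox, -5.21 for bin2a, 11.46 for gnb3a, 12.87 for crygm2d21 and 10.15 for crygm2d13 on the log2 scale. Against 10 hpf it was 8.46 for nqo1, 7.72 for lcp1 and -7.83 for nrn1la. The fitted values of genes with a group near 0 depend on the prior count and are no bounds.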

How the results depend on the processing

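With library totals alone the test called 2510 genes higher and 13714 lower, and without yolk replicate 1 as well it called 2664 and 14973, against 5655 and 4109 on the TMM scale. Fitting all 32 libraries, in which 26268 genes were tested, gave 6648 lower genes, and 7579 without yolk replicate 1, so that 44.8% of called genes were higher with all 32 libraries. Leaving out 1 library gave 4792 to 6432 higher and 2354 to 6556 lower genes. Counts of all genes called higher or lower under DESeq2 size factors, the DESeq2 Wald test, no low-count filter, the replicate block and removal of mitochondrially encoded genes stayed within 1.5 times, and so did the total calls of the age tests under all their alternatives, though not their split by direction. Among lists, the Wald test gave 15 lower neural genes and no low-count filter 12, against 32. The Wald count leaves out genes to which DESeq2 gave no adjusted p. With library totals alone the share of the whole-embryo level in yolk replicate 1 was 31.7% for skeletal muscle, 26.9% for lens and 31.8% for neural genes.

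Signs turned under library totals alone for col6a1 (-0.37, and -0.41 with yolk replicate 1 also left out), col6a2 (-0.45 and -0.56), col6a3 (-0.68 and -0.7), gmnn (-0.23 and -0.24), hoxb1b (-0.09 and -0.11) and hoxb6a (-0.7 and -0.83), and without yolk replicate 4 for nqo1 (-1.01, while it reached 3.65 without whole-embryo replicate 4). The cause was not tested, other than that the scale moves all genes by -1.24. At 26 hpf the replicate block changed no other call of a named gene than those printed beside it, and moved no other count given in the text by over 1.5 times. The search for promoter letters was not run, since no promoter table was used here. Depth limits genes under about 0.5 CPM, where a library holds few counts.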
